A study of Mus musculus with 9 samples.

Results

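In all, 6 genes of cholinergic and oculomotor neurons were examined in midbrain tissue of DJ-1+/+ and DJ-1-/- mice. They are Chat, Slc18a3, Slc5a7, Ache, Isl1 and Phox2a, listed for their known roles as cholinergic markers and motor neuron regulators, by a rule that uses no measured value. They are 6 of the 26602 genes with a count, and all 6 were among the 18127 genes whose counts over the 9 libraries summed to 10 or more and that entered the test between genotypes. Midbrain tissue including the substantia nigra, 10 to 15 mg per animal, came from 4 DJ-1+/+ mice (labelled WT and so called here) and 5 DJ-1-/- mice (labelled DJ-1 KO) of 3 to 4 months of age. The DJ-1-/- mice are homozygous from conception for a targeted allele of Park7, the gene of DJ-1, and the line had been backcrossed for 7 generations to C57BL/6. Both genotypes were untreated littermates from heterozygous breeding and were housed together, and the labels do not give their sex. Each library is 1 mouse and 3′ mRNA-seq with unique molecular identifiers, so that a count is a molecule read near the end of its transcript.

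Acetylcholine is made from choline and acetyl-CoA by choline acetyltransferase, packed into vesicles by a vesicular transporter, and broken down in the synaptic cleft by acetylcholinesterase, after which choline is taken up again by a high-affinity transporter. In the midbrain and the adjoining brainstem the main cholinergic cells are the motor neurons of the oculomotor and trochlear nuclei, the preganglionic Edinger-Westphal neurons, and the pedunculopontine and laterodorsal tegmental neurons. These cells lie outside the substantia nigra, and the pedunculopontine neurons send axons to its dopaminergic neurons. Phox2a is a homeodomain factor needed for the oculomotor and trochlear nuclei and for noradrenergic neurons, and Isl1 is a LIM-homeodomain factor of motor neurons that other neurons use as well.

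The libraries held 841974 to 886085 counts in WT and 967751 to 1098125 counts in DJ-1-/- mice, so that depth and genotype cannot be told apart. At these depths 3 counts, taken as the lowest level that can be shown, correspond to 2.73 to 3.56 counts per 1000000 (cpm), a limit of counting error alone. Park7 fitted the labels, with 105 to 132 counts in WT and 14 to 29 in DJ-1-/- mice. The source of the counts that remained in DJ-1-/- mice, which were above the floor, was not tested. Several libraries differed in regional markers, and 2 of them differed in the same direction in each of the regional lists given next. The summed level of 6 Hox genes, which mark the hindbrain, was 3.39 cpm in WT replicate 4 and 0 cpm in DJ-1-/- replicate 5, against 27.3 to 218 cpm in the others, and 3 and 6 of the 6 genes were at 0 in these libraries. The summed level of 6 markers of noradrenergic and serotonergic neurons was 5.64 and 0.97 cpm in the same libraries against 122 to 434 cpm in the others, with 3 and 5 of 6 genes at 0. Conversely, 11 markers of forebrain and thalamus summed to 665 and 567 cpm there against 214 to 352 cpm, and 4 markers of the habenula and interpeduncular system to 278 and 277 cpm against 65.2 to 167 cpm. Markers of neurons in general summed to between 1406 and 1545 cpm in all 9 libraries. These libraries, WT replicate 4 and DJ-1-/- replicate 5, are the 2 meant below as standing apart, and several results, but not all, are also given without them. Other lists divided the mice differently. The summed level of 8 markers of cerebellar neurons was 970 cpm in WT replicate 1 and 196 to 394 cpm in the other 8 libraries. That of 11 markers of the choroid plexus was 927 cpm in WT replicate 4, 409 cpm in WT replicate 1 and 242 cpm in DJ-1-/- replicate 5. In the others it was 161 to 270 cpm. All 8 cerebellar and all 11 choroid plexus genes had a negative log2 fold change in DJ-1-/- mice, with 6 of each list at an unadjusted p under 0.05 by edgeR beside 2.83% of all genes tested. Without WT replicate 4 and DJ-1-/- replicate 5 the choroid plexus list had 0 of the 9 genes then tested at that threshold and the cerebellar list 8 of 8, beside 3.38% of all genes in that fit. WT replicate 1 was kept in that fit. The part of these differences in the levels of the 6 genes was not tested. Markers of oligodendrocytes summed to 1344 to 1753 cpm, of astrocytes to 645 to 780 cpm and of erythroid cells to 382 to 664 cpm. Xist, an RNA made in female cells, had 0 and 1 counts in WT replicates 1 and 4 and 2 counts in DJ-1-/- replicate 5. It had 146 to 193 counts in the other 6 libraries. Both libraries that stood apart were thus low in Xist. Fits with Xist as a covariate therefore cannot tell sex and region fully apart.

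None of the 6 genes passed the test between genotypes. With edgeR's quasi-likelihood method and adjustment after Benjamini and Hochberg, 0 of 6 were called at an adjusted p under 0.05, beside 0.00552% of all genes tested, which was Park7 alone. At an unadjusted p under 0.05 in the same test 0 of 6 were called, beside 2.83% of all genes, and DESeq2 also gave 0 of 6 at that threshold, beside 1.3% of all genes with a p. No gene of the list was higher in every DJ-1-/- than in every WT library, beside 0.662% of all genes. Leaving out Phox2a, which was under the floor, the fitted log2 fold change was positive for 3 genes and negative for 2, and over all genes it was positive for 9412 and negative for 8715 with a median of 0.01. Across mice, Chat, Slc18a3 and Slc5a7 varied widely, Ache varied least, Isl1 was correlated with none of the others past the test, and Phox2a was at the limit of detection. In bulk tissue, fewer cells of a type and less RNA per cell cannot be told apart.

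**Figure D1:**
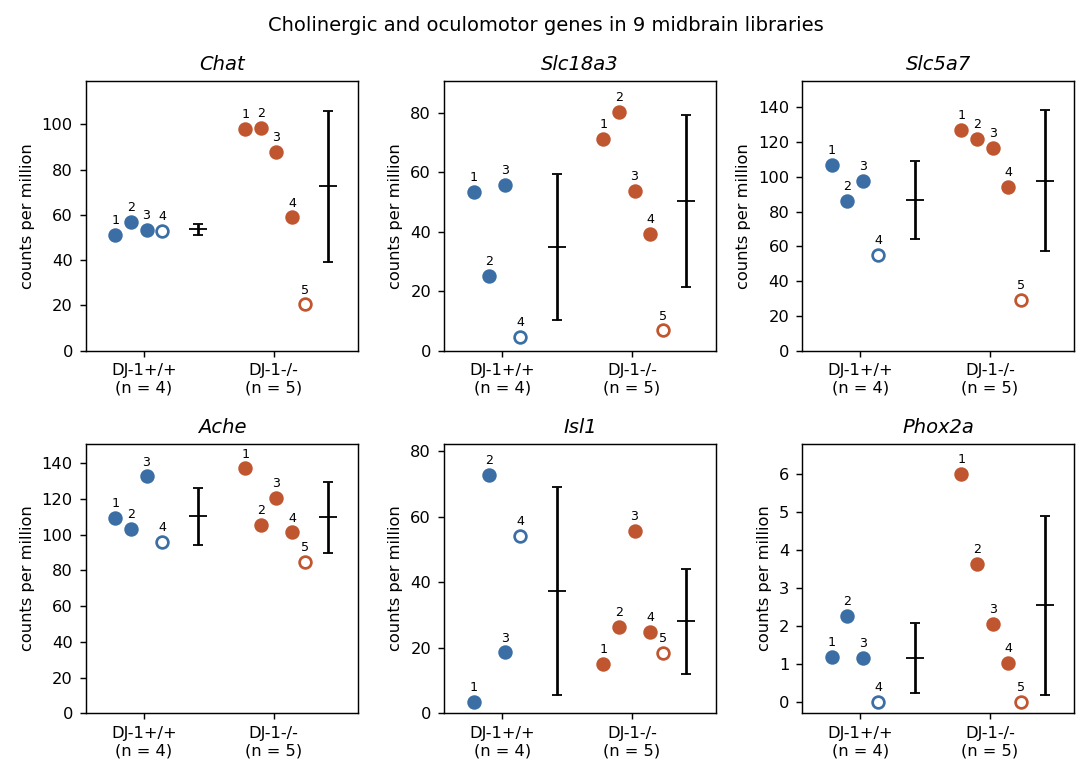
Level of the 6 genes in counts per 1000000 (y axis, from 0) in each library, with the replicate number above each point and the mean ± SD beside each genotype. Open points are WT replicate 4 and DJ-1-/- replicate 5, the lowest libraries for Slc18a3, Slc5a7 and Ache, and the ranges of the genotypes overlap for all 6 genes.

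Chat and Slc18a3 form one locus. Chat encodes choline acetyltransferase (ENSMUSG00000021919) and lies on the minus strand at chr14:32408203-32465989 (GRCm38, GENCODE M21), and Slc18a3 encodes the vesicular acetylcholine transporter (ENSMUSG00000100241) and lies at chr14:32462438-32464850, inside Chat and on the same strand. No exon of Chat overlaps Slc18a3, the start of Slc18a3 is 1139 bp downstream of that of Chat, and their 3′ ends, where the reads fall, are 54235 bp apart. Slc5a7, the gene of the high-affinity choline transporter (ENSMUSG00000023945), lies elsewhere at chr17:54273590-54299034 on the minus strand and overlaps no other gene. The promoters of these 3 genes, which make, pack and recover acetylcholine or its precursor in cholinergic neurons, are shown to compare the neighbours with the gene on another chromosome. Each runs from 250 bases before to 50 bases after the RefSeq start (GRCm38.p6, 5′ to 3′ on the gene's strand), and capitals mark TGACG or its complement CGTCA, the core of the cAMP response element.
Chat: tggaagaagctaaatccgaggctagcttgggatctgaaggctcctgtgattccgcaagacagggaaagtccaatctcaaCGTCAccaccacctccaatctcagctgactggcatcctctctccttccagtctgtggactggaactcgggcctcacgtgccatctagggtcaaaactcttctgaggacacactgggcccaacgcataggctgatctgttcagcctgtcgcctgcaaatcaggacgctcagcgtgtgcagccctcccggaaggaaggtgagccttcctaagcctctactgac
Slc18a3: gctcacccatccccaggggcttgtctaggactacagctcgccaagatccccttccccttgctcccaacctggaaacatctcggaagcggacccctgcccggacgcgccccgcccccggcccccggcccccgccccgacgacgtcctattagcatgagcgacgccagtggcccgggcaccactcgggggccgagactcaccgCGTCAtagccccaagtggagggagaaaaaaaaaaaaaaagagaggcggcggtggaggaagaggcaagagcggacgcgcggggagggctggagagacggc
Slc5a7: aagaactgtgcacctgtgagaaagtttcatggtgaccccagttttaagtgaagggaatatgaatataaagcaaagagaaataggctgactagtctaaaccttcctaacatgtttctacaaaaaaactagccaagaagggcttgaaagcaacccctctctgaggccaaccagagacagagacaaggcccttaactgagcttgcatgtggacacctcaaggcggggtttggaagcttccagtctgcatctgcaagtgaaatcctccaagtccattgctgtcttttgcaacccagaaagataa
They are chr14:32465860-32466159 for Chat, chr14:32464801-32465100 for Slc18a3 and chr17:54298985-54299284 for Slc5a7, all on the minus strand, and all 6 genes matched the promoter table by symbol. The motif begins 171 bases before the start of Chat and 49 bases before that of Slc18a3, and it was not in the window of Slc5a7. Among all 32851 promoters of this length 20.8% hold it. The E-box CANNTG occurred 2 times in Chat, 1 time in Slc18a3 and 4 times in Slc5a7, and 72.3% of all promoters hold it. The homeodomain core ATTA or TAAT occurred 1 time in Slc18a3 and not in the windows of the other two, and 58% of all promoters hold it. Base composition differed, with 55.7% G and C in Chat, 67% in Slc18a3 and 44.7% in Slc5a7 against a median of 52.7% over all promoters. All motifs were searched on both strands, and a match of letters is a description and not a binding site.

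For Chat, 43, 50, 46 and 47 counts were found in WT replicates 1 to 4, and 98, 108, 85, 57 and 21 counts in DJ-1-/- replicates 1 to 5. In cpm these were 51.1, 56.8, 53.5 and 53.0 against 98.1, 98.3, 87.7, 58.9 and 20.5. The WT mice were nearly identical, whereas the DJ-1-/- mice lay on both sides of them, 3 far above, 1 just above the highest and replicate 5 below the lowest. The mean level was 53.6 ± 2.39 cpm (SD, n = 4) in WT and 72.7 ± 33.3 cpm (SD, n = 5) among the DJ-1-/- mice. The coefficient of variation of the WT mice was 4.45%, below the 14.7% that counting error alone gives at their mean count. The log2 fold change was 0.44 with a 95% interval of −0.19 to 1.07 (edgeR, SE 0.30, unadjusted p = 0.158, adjusted p = 1), and the exact two-sided permutation test of the mean cpm gave p = 0.206.

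The result for Chat rested on DJ-1-/- replicate 5. Without that library the DJ-1-/- mean was 85.8 ± 18.6 cpm (SD, n = 4), all 4 values were above all WT values, and the log2 fold change was 0.67 with an interval of 0.34 to 1.01 (edgeR, SE 0.16, unadjusted p = 0.000548, adjusted p = 1.0). The exact permutation test then gave p = 0.0286, the smallest that 4 mice against 4 allow. Since replicate 5 was the only DJ-1-/- library below the WT values, leaving it out by itself gives this separation and this p. With WT replicate 4 left out as well, the log2 fold change was 0.67 (edgeR, unadjusted p = 0.00119, adjusted p = 1.0). With any other library left out alone instead, it was 0.30 to 0.49 (edgeR, unadjusted p from 0.146 to 0.357). Without DJ-1-/- replicate 5, 2 of the 6 genes, Chat and Slc5a7, had an unadjusted p under 0.05 with a higher level in DJ-1-/- mice, beside 3.65% of all genes in either direction and 1.83% in that direction. Chat alone of the 6 was then higher in every DJ-1-/- library than in every WT library, beside 1.46% of all genes, and 0 of 6 were called at an adjusted p under 0.05, beside 0.0056% of all genes. With the summed level of the Hox genes as a covariate in all 9 libraries, the log2 fold change of Chat was 0.36 (edgeR, SE 0.21, unadjusted p = 0.107). With the level of Xist as a covariate it was 0.17 (edgeR, SE 0.27, unadjusted p = 0.548). Both the fit without replicates 4 and 5 and the Hox covariate were chosen after seeing the data.

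**Figure D2:**
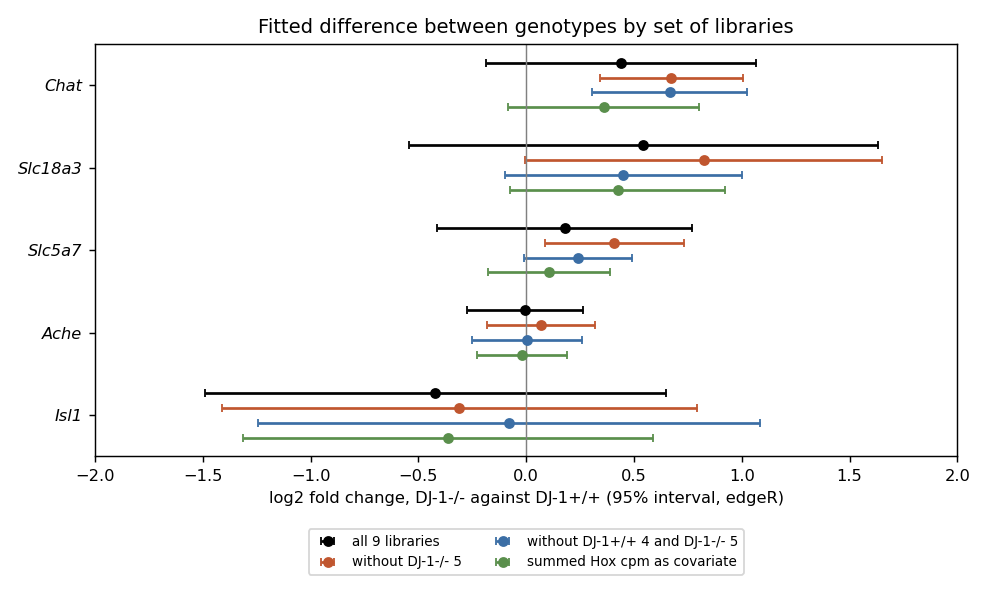
Log2 fold change of DJ-1-/- against WT mice (x axis) with its 95% interval from edgeR for 5 genes in 4 fits, by colour. For Chat the interval runs from −0.19 to 1.07 in all 9 libraries and from 0.34 to 1.01 without DJ-1-/- replicate 5, and for Ache all 4 intervals lie around 0.

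For Slc18a3 the counts were 45, 22, 48 and 4 in WT and 71, 88, 52, 38 and 7 in DJ-1-/- mice. These were 53.4, 25.0, 55.8 and 4.51 cpm against 71.1, 80.1, 53.6, 39.3 and 6.82 cpm. The lowest library of each genotype, WT replicate 4 and DJ-1-/- replicate 5, was the one lowest in hindbrain markers, and the other values of the genotypes overlapped. The mean was 34.7 ± 24.5 cpm (SD, n = 4) in WT and 50.2 ± 28.9 cpm (SD, n = 5) among the DJ-1-/- mice, a log2 fold change of 0.54 with an interval of −0.55 to 1.63 (edgeR, SE 0.51, unadjusted p = 0.306, adjusted p = 1, exact permutation p = 0.397). It was 0.82 without DJ-1-/- replicate 5 (edgeR, SE 0.39, unadjusted p = 0.051), 0.17 without WT replicate 4 (unadjusted p = 0.703) and 0.45 without both libraries (SE 0.26, unadjusted p = 0.103). With Xist as a covariate it was 0.15 (edgeR, SE 0.50, unadjusted p = 0.766), and with the summed Hox level 0.42 (SE 0.24, unadjusted p = 0.0906). The highest library held 17.8 times the level of the lowest. Without WT replicate 1, the library with the cerebellar markers, the log2 fold change was 0.83 for Slc18a3 (edgeR, unadjusted p = 0.178) and 0.42 for Chat (unadjusted p = 0.232).

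For Slc5a7 the counts were 90, 76, 84 and 49 in WT and 127, 134, 113, 91 and 30 in DJ-1-/- mice. These were 106.9, 86.4, 97.7 and 55.3 cpm against 127, 122, 117, 94.0 and 29.2 cpm. DJ-1-/- replicates 1 to 3 were above all WT mice, replicate 4 was within their range and replicate 5 below it. The mean was 86.6 ± 22.5 cpm (SD, n = 4) in WT and 97.8 ± 40.4 cpm (SD, n = 5) among the DJ-1-/- mice, and the log2 fold change was 0.18 with an interval of −0.41 to 0.77 (edgeR, SE 0.28, unadjusted p = 0.53, adjusted p = 1, exact permutation p = 0.603). It was 0.41 without DJ-1-/- replicate 5 (edgeR, SE 0.15, unadjusted p = 0.0159, adjusted p = 1.0, exact permutation p = 0.0857), 0.011 without WT replicate 4 (unadjusted p = 0.968) and 0.24 without both libraries (SE 0.12, unadjusted p = 0.0575). With Xist as a covariate the sign turned and the log2 fold change was −0.055, and with the summed Hox level it was 0.11 (edgeR, SE 0.14, unadjusted p = 0.436).

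Ache encodes acetylcholinesterase (ENSMUSG00000023328, chr5:137287519-137294466, plus strand), an enzyme that many cells besides cholinergic neurons make. Its counts were 92, 91, 114 and 85 in WT and 137, 116, 117, 98 and 87 in DJ-1-/- mice, or 109, 103, 133 and 95.9 cpm against 137, 106, 121, 101 and 84.8 cpm. The values of the genotypes lay over each other, with the 2 libraries that stood apart lowest in their genotype. The mean was 110.3 ± 15.8 cpm (SD, n = 4) in WT and 109.9 ± 19.9 cpm (SD, n = 5) among the DJ-1-/- mice. Between genotypes the log2 fold change was −0.01 with an interval of −0.28 to 0.26 (edgeR, SE 0.13, unadjusted p = 0.962, adjusted p = 1, exact permutation p = 0.984), an interval of 0.83 to 1.20 when written as a fold. The coefficient of variation over the 9 mice was 15.5%, against 34.7% for Slc5a7, 40.0% for Chat and 61.5% for Slc18a3, while counting error alone gives 9.80%, 10.6%, 12.7% and 15.5%. An annotated gene on the opposite strand, Gm42456, shares exon sequence with Ache but not within its last 300 bases.

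Isl1 (ENSMUSG00000042258, chr13:116298281-116309689, minus strand) had 3, 64, 16 and 48 counts in WT and 15, 29, 54, 24 and 19 counts in DJ-1-/- mice. These were 3.56, 72.7, 18.6 and 54.2 cpm against 15.01, 26.4, 55.7, 24.8 and 18.5 cpm. The highest and the lowest library were both WT, at 20.4 times each other, and the library order differed from that of Chat, Slc18a3 and Slc5a7, with WT replicate 4 among the 3 highest. The mean was 37.3 ± 31.8 cpm (SD, n = 4) in WT and 28.1 ± 16.1 cpm (SD, n = 5) among the DJ-1-/- mice. Between genotypes the log2 fold change was −0.42 with an interval of −1.49 to 0.65 (edgeR, SE 0.50, unadjusted p = 0.416, adjusted p = 1, exact permutation p = 0.635), and its sign turned to 0.11 without WT replicate 2. Without WT replicate 4 and DJ-1-/- replicate 5 it was −0.08 (edgeR, SE 0.55, unadjusted p = 0.885). The promoter of Isl1 holds TGACG or CGTCA 2 times, beginning 59 and 41 bases before the start, and ATTA or TAAT 2 times.

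Phox2a (ENSMUSG00000007946, chr7:101818313-101822726, plus strand) had 1, 2, 1 and 0 counts in WT and 6, 4, 2, 1 and 0 counts in DJ-1-/- mice. All WT libraries and 3 of the 5 DJ-1-/- libraries were at or below the floor of 3 counts. The mean was 1.16 ± 0.93 cpm (SD, n = 4) in WT and 2.55 ± 2.35 cpm (SD, n = 5) among the DJ-1-/- mice, both under the floor, so that no fold change is given and a difference was not detectable at this depth (edgeR, unadjusted p = 0.248, adjusted p = 1, exact permutation p = 0.381). The last exon of Phox2a, including its last 300 bases, overlaps Inppl1 on the opposite strand, and whether the counting used strand is not given in the sources used here, so that its counts are uncertain. The only defining factor of oculomotor neurons among the 6 besides Isl1 was therefore at the detection limit in the tissue.

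The relation between genes was computed for the 10 pairs of the 5 genes with a mean of at least 10 counts per library, as Pearson's r of log2(cpm + 1) over the 9 mice with exact permutation tests and Benjamini-Hochberg adjustment over the 10 pairs. Chat and Slc5a7 had r = 0.90 (exact permutation p = 0.000973, adjusted p = 0.00973), with Spearman's rho = 0.77 (exact permutation p = 0.0214, adjusted p = 0.0535). Slc18a3 and Slc5a7 had r = 0.90 (exact permutation p = 0.0044, adjusted p = 0.022) and rho = 0.92 (exact permutation p = 0.00131, adjusted p = 0.0131). Slc5a7, which lies on another chromosome, thus had a higher r with each of the other two than these had with each other, a difference that was not tested. The neighbours Chat and Slc18a3 had r = 0.71 (exact permutation p = 0.0299, adjusted p = 0.0598) and rho = 0.73 (exact permutation p = 0.0311, adjusted p = 0.0623), which did not pass the adjustment.

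Ache followed Slc5a7 with r = 0.78 (exact permutation p = 0.00792, adjusted p = 0.0264) and rho = 0.83 (exact permutation p = 0.00827, adjusted p = 0.0413). Its r with Slc18a3 was 0.75 (exact permutation p = 0.0213, adjusted p = 0.0531; rho = 0.80, exact permutation p = 0.0138, adjusted p = 0.0461) and with Chat 0.68 (exact permutation p = 0.0422, adjusted p = 0.0703; rho = 0.50, exact permutation p = 0.178, adjusted p = 0.296). All 4 pairs with Isl1 had r between −0.33 and 0.17, with adjusted p of at least 0.538 (exact permutation test), and rho between −0.25 and 0.30, with adjusted p = 0.581 for each (exact permutation test).

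The relations depended on which libraries were included. Without WT replicate 4 and DJ-1-/- replicate 5, r was 0.89 for Slc18a3 and Slc5a7 (exact permutation p = 0.00337, adjusted p = 0.0337), 0.83 for Chat and Slc5a7 (exact permutation p = 0.0454, adjusted p = 0.227), and 0.63 for Chat and Slc18a3 (exact permutation p = 0.139, adjusted p = 0.462). The relation of Slc18a3 and Slc5a7 was the 1 of 10 that still passed the adjustment. On all 9 mice 3 of 10 pairs passed it, and with 1 library left out 1 of 10 did so without WT replicate 2 or without DJ-1-/- replicate 5, 5 without WT replicate 4 or without DJ-1-/- replicate 2, and 6 without WT replicate 3. For the pairs led by Slc18a3 or Slc5a7 the 2 libraries farthest from the median of the first gene were DJ-1-/- replicate 5 and WT replicate 4, and without them r of Ache fell to 0.49 with Slc18a3 and 0.47 with Slc5a7. For pairs led by Chat the farthest libraries were DJ-1-/- replicates 2 and 5, and without them r was 0.63 with Slc5a7, 0.45 with Slc18a3 and 0.60 with Ache. With values centred within each genotype r was 0.91 for both Chat and Slc5a7 and Slc18a3 and Slc5a7, and 0.70 for Chat and Slc18a3. A correlation within a genotype was not computed, since neither holds 6 mice.

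**Figure D3:**
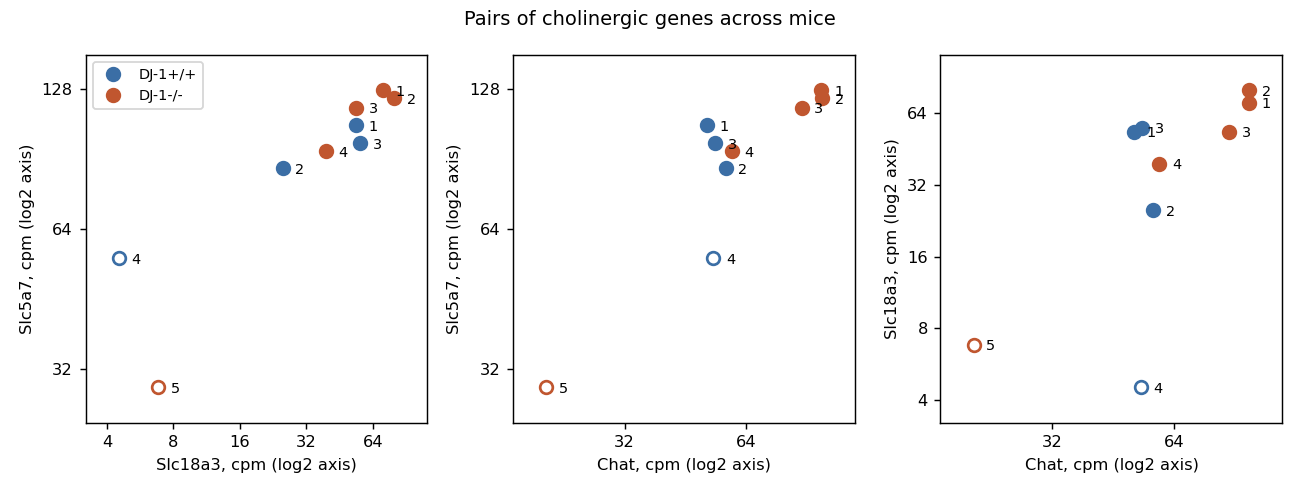
Levels of Slc18a3, Slc5a7 and Chat plotted against each other in counts per 1000000 on log2 axes, 1 point per mouse with its replicate number, WT in blue and DJ-1-/- in orange. Open points are WT replicate 4 and DJ-1-/- replicate 5, and in the third panel WT replicate 4 lies below the others, with 53.0 cpm of Chat but 4.51 cpm of Slc18a3.

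The neighbours Chat and Slc18a3 did not keep a fixed ratio. Slc18a3 made up 51.1, 30.6, 51.1 and 7.84% of the counts of both genes in WT replicates 1 to 4, and 42.01, 44.9, 38.0, 40.0 and 25.0% in DJ-1-/- replicates 1 to 5. In WT replicate 4 the share was 4 of 51 counts, with an exact Clopper-Pearson 95% interval of 2.18 to 18.9% that covers counting error only. This lay below the intervals of WT replicates 1 (40.3 to 62.0%), 2 (20.2 to 42.5%) and 3 (40.5 to 61.5%). In DJ-1-/- replicate 5 the share was 7 of 28 counts with an interval of 10.7 to 44.9%, which overlapped those of DJ-1-/- replicates 1 to 4. So Slc18a3 was low in both libraries that stood apart, whereas Chat was low in only one of them. The part of the regional markers that set these libraries apart in this was not tested.

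The summed level of Chat, Slc18a3 and Slc5a7 was 211, 168, 207 and 113 cpm in WT and 296, 301, 258, 192 and 56.5 cpm in DJ-1-/- mice. The lowest 2 libraries were DJ-1-/- replicate 5 and WT replicate 4, in which the hindbrain, noradrenergic and serotonergic markers were at or near 0 and those of forebrain, thalamus and habenula highest. In the other 7 libraries the sum ran from 168 to 301 cpm while the Hox genes ran from 27.3 to 218 cpm. The part of dissection in these levels was not tested.

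**Figure D4:**
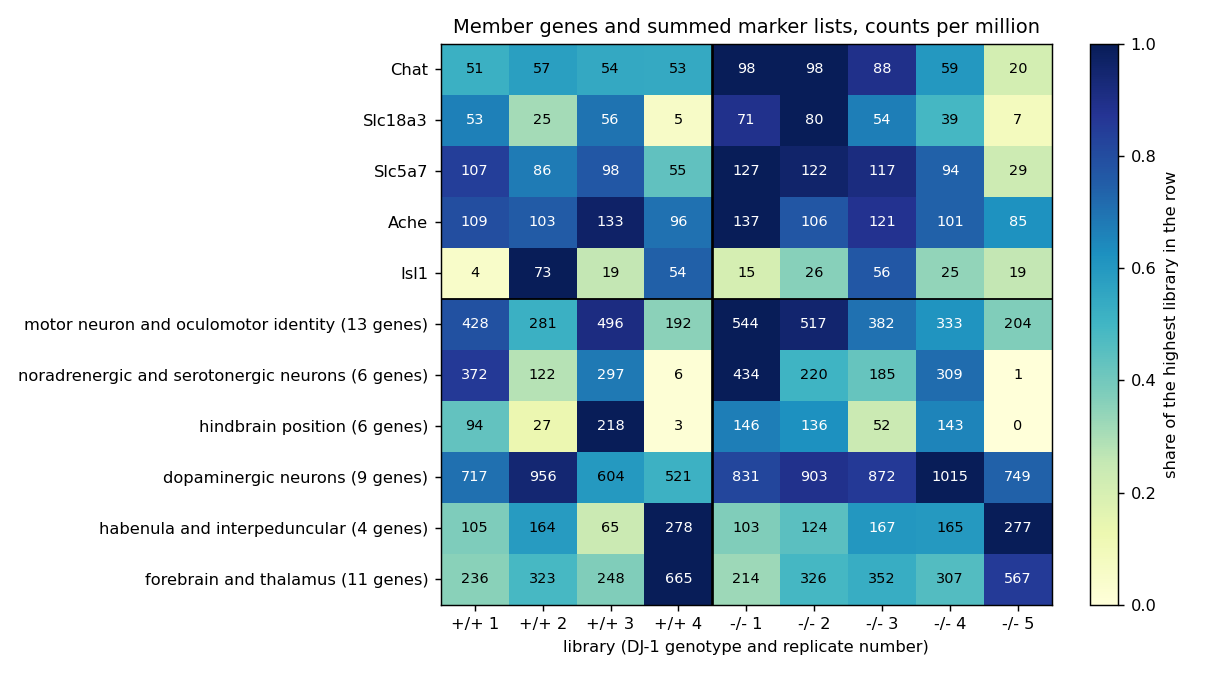
Levels in counts per 1000000 (numbers) of 5 genes above the line and of summed marker lists below it, in the 9 libraries, with colour giving the share of the highest library in each row. WT replicate 4 and DJ-1-/- replicate 5 have 3.39 and 0 cpm of the hindbrain genes and the 2 highest sums of the habenular and of the forebrain and thalamic genes.

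Across the 12632 other genes tested with a mean of at least 10 counts per library, those whose level over the 9 mice was most like the sum of Chat, Slc18a3 and Slc5a7 were Tmem205 (r = 0.98), Chodl (r = 0.97), Prph (r = 0.96), Trappc1 (r = 0.95) and Anxa2 (r = 0.95). These are the highest of many correlations over 9 points that share the libraries that stand apart, and they are given as a description. Chodl, the gene of chondrolectin, and Prph, the gene of the intermediate filament peripherin, are 2 of the 13 genes on the list of motor neuron markers. Chodl had 60, 48, 60 and 26 counts in WT and 91, 83, 57, 50 and 11 counts in DJ-1-/- mice, lowest in the 2 libraries that stood apart. Prph had 25, 17, 41 and 11 against 52, 69, 39, 26 and 7 counts, with the same 2 libraries lowest. Most like Ache were Sfrp1, Sp100, Efhd2, Adamts5 and Usp25, with r between 0.94 and 0.95.

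The other markers of motor neurons and of the oculomotor complex were taken from a list of 13 genes, of which 11 were tested. Their summed level was 428, 281, 496 and 192 cpm in WT and 544, 517, 382, 333 and 204 cpm in DJ-1-/- mice, so that the 2 libraries that stood apart were again lowest. In the fit of all 9 libraries 8 had a positive and 3 a negative log2 fold change, with a median of 0.39, and edgeR gave an unadjusted p under 0.05 for 0 of 11, beside 2.83% of all genes. The extremes were Tbx20, a T-box factor of cranial motor neurons, with a log2 fold change of 0.97 (edgeR, SE 0.67, unadjusted p = 0.166), and Lhx3, with −0.23 (SE 0.55). Tbx20 had 7, 3, 4 and 0 counts in WT and 15, 13, 6, 6 and 1 counts in DJ-1-/- mice. Its log2 fold change was 0.56 without WT replicate 4. Without WT replicate 1 the fitted value was 1.55. The WT counts left were then 3, 4 and 0, near the floor, so that this is not an exact fold change. Without DJ-1-/- replicate 5, 2 of 11 had an unadjusted p under 0.05, both with a higher level in DJ-1-/- mice and beside 1.83% of all genes in that direction, namely Prph (log2 fold change 0.74, edgeR, unadjusted p = 0.0371, adjusted p = 1.0) and Tbx20 (1.25, unadjusted p = 0.0472). Without both libraries the count was 0 of 11, beside 3.38% of all genes, and the median 0.32.

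The 4 markers of Edinger-Westphal and pedunculopontine neurons had a median log2 fold change of 1.01, with 1 of 4 at an unadjusted p under 0.05 beside 2.83% of all genes. This was Ucn, the gene of urocortin, a peptide of centrally projecting Edinger-Westphal neurons and not of the preganglionic ones named above as cholinergic. It had 12, 1, 2 and 0 counts in WT and 52, 7, 21, 26 and 4 counts in DJ-1-/- mice, so that 3 of the DJ-1-/- mice were above all WT mice and the other two within their range. The mean was 4.43 ± 6.62 cpm (SD, n = 4) in WT and 22.2 ± 19.4 cpm (SD, n = 5) among the DJ-1-/- mice, for a fitted log2 fold change of 2.30 (edgeR, SE 0.80, unadjusted p = 0.0108, adjusted p = 1). WT replicate 1 held 12 of the 15 WT counts. The other WT mice, with 1, 2 and 0 counts, were below the floor of 3 counts, so that no fold change is given without it. Without DJ-1-/- replicate 1 the log2 fold change was 1.70. Without a filter on low counts its adjusted p was 0.00244 in the same test, with a log2 fold change of 2.32. That fit called 36 genes over all genes, against 1 with the filter. Nos1, a marker of pedunculopontine neurons that many other neurons express, had the lowest log2 fold change, −0.03 (SE 0.12). Without DJ-1-/- replicate 5 the count was 2 of 4, beside 3.65% of all genes, and without both libraries that stood apart again 2 of 4, beside 3.38%, as Cartpt, the gene of another Edinger-Westphal peptide, passed with log2 fold changes of 0.83 (edgeR, unadjusted p = 0.0411) and 0.87 (unadjusted p = 0.0459). Ucn had 4 counts in DJ-1-/- replicate 5 and 0 in WT replicate 4, and its log2 fold change was 2.15 without both (edgeR, unadjusted p = 0.00546, adjusted p = 1.0).

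On the receiving side, 14 of 16 nicotinic receptor subunits had a count and 9 were tested, with 4 positive and 5 negative log2 fold changes and a median of −0.01. Chrna6, a subunit concentrated in dopaminergic neurons, was the 1 of 9 with an unadjusted p under 0.05, beside 2.83% of all genes. It had 6, 39, 9 and 10 counts in WT and 23, 52, 40, 32 and 26 counts in DJ-1-/- mice, so that the WT mice were low except for replicate 2, which was second highest of all 9 in cpm. Its log2 fold change was 0.89 (edgeR, SE 0.40, unadjusted p = 0.0425, adjusted p = 1), and it was 1.80 without WT replicate 2 (edgeR, unadjusted p = 4.22e-05) and 0.31 without WT replicates 1 and 4 (unadjusted p = 0.455). Its unadjusted p was over 0.05 without WT replicate 1, 3 or 4 or DJ-1-/- replicate 2, 3 or 4. The 9 markers of dopaminergic neurons summed to 521 to 956 cpm in WT and to 749 to 1015 cpm in DJ-1-/- mice. Their log2 fold change was positive in 9 of 9, or 8 of 9 without DJ-1-/- replicate 5. In all 9 libraries 3 of 9 had an unadjusted p under 0.05, beside 2.83% of all genes. These were Th, Slc6a3 and Pitx3, the last with 1, 1, 0 and 0 counts in WT. Without DJ-1-/- replicate 5 the count was 4 of 9, beside 3.65% of all genes. Without both libraries that stood apart it was 2 of 9, Th and Drd2, beside 3.38%. In that fit Slc6a3 (edgeR, unadjusted p = 0.096) and Pitx3 (unadjusted p = 0.0627) did not pass. The part of these markers in the level of Chrna6 was not tested. The lowest log2 fold change among the subunits was that of Chrnb1, −0.42 (SE 0.75).

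Of the 5 muscarinic receptors 4 had a count and were tested, with 1 positive and 3 negative log2 fold changes, a median of −0.09 and 0 of 4 with an unadjusted p under 0.05 by edgeR, beside 2.83% of all genes. Chrm5, the subtype of dopaminergic neurons, had 3, 21, 4 and 12 counts in WT and 4, 6, 6, 10 and 3 counts in DJ-1-/- mice, for a fitted log2 fold change of −0.98 (edgeR, SE 0.52, unadjusted p = 0.0781). Without WT replicate 2, which held 21 of its 40 WT counts, it was −0.35 (edgeR, unadjusted p = 0.519), the smallest size with any 1 library left out. It was −1.27 without WT replicate 1 (unadjusted p = 0.0221), −1.24 without WT replicate 3 (unadjusted p = 0.0295) and −1.29 without DJ-1-/- replicate 4 (unadjusted p = 0.0368). Chrm1 had 0.61 (SE 0.36), which ran from 0.33 without WT replicate 3 to 0.91 without WT replicate 2 (edgeR, unadjusted p = 0.0359). The 5 chaperones and Ly6 proteins that act on nicotinic receptors lay between −0.05 for Tmem35a and 0.10 for Lypd6, with a median of 0.02, the smallest unadjusted p of 0.441 for Lypd1 (edgeR) and 0 of 5 under 0.05, beside 2.83% of all genes.

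Of 12 genes of choline supply and acetylcholine breakdown 11 were tested, with 4 positive and 7 negative log2 fold changes and a median of −0.03. Pcyt1a, which encodes the enzyme that directs phosphocholine into phosphatidylcholine, was the 1 of 11 with an unadjusted p under 0.05, beside 2.83% of all genes, at 108 ± 5.202 cpm (SD, n = 4) in WT and 89.8 ± 10.8 cpm (SD, n = 5) among the DJ-1-/- mice. Its log2 fold change was −0.27 (edgeR, SE 0.10, unadjusted p = 0.012, adjusted p = 1). Prima1, which anchors acetylcholinesterase in neuronal membranes, had the highest value, with 2, 6, 7 and 3 counts in WT and 21, 17, 10, 4 and 5 counts in DJ-1-/- mice and a log2 fold change of 1.09 (edgeR, SE 0.52, unadjusted p = 0.0519), or 0.58 without WT replicates 1 and 4. Its 2 highest libraries, DJ-1-/- replicates 1 and 2, were also the 2 highest for Chat, Slc18a3 and Slc5a7. Slc44a3, a choline transporter-like gene, had the lowest fitted value, −1.13 (edgeR, SE 0.74, unadjusted p = 0.145). Its DJ-1-/- mean of 2.15 cpm was under the floor, so that this is not an exact fold change. WT replicate 3 held 11 of its 17 WT counts, and without that library the fitted value was −0.08, with both genotypes at or under the floor. No gene of these lists was without overlap between the genotypes in all 9 libraries, and in edgeR's fit with the filter on low counts none had an adjusted p under 0.05, whereas the unadjusted p was under 0.05 for 3 of the 44 genes tested (6.82%), Ucn, Chrna6 and Pcyt1a, beside 2.83% of all genes. Without DJ-1-/- replicate 5 it was under 0.05 for 7 of 44 (15.9%), which added Prph, Tbx20, Cartpt and Prima1, beside 3.65% of all genes. Without WT replicate 4 and DJ-1-/- replicate 5 it was so for 3 of 44, Ucn, Cartpt and Pcyt1a, beside 3.38%.

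**Figure D5:**
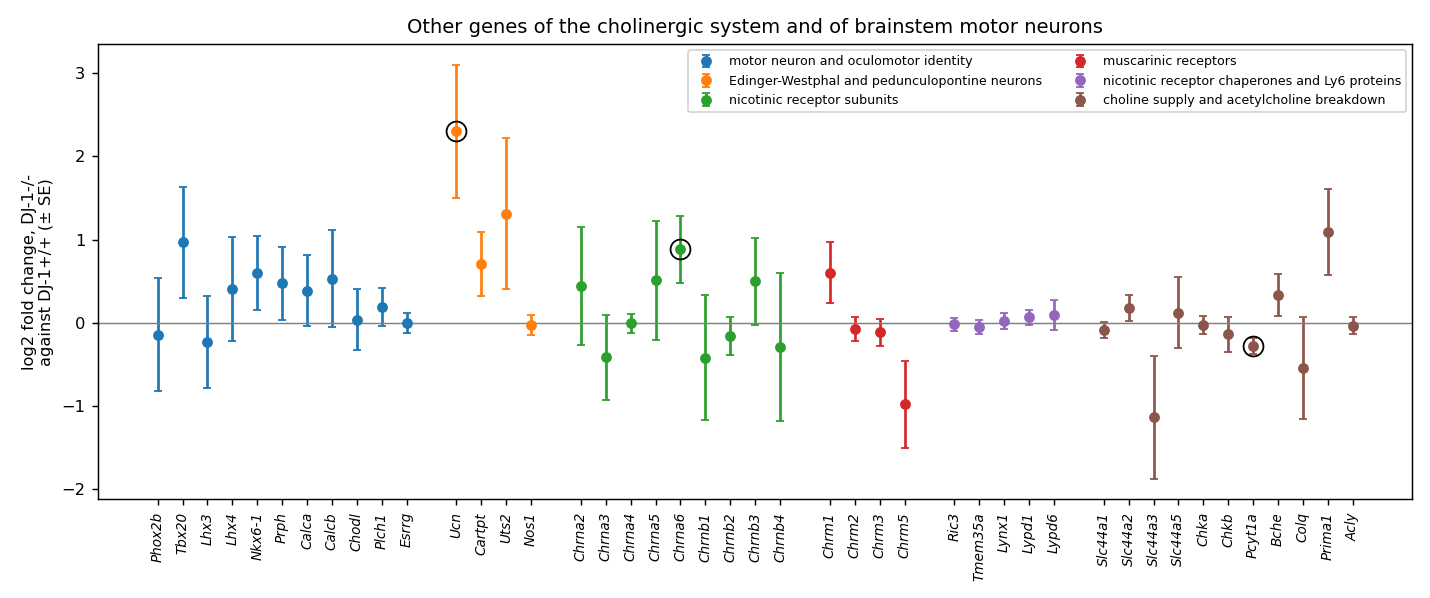
Log2 fold change of DJ-1-/- against WT mice (y axis) ± SE for the tested genes of 6 lists, by colour, in the edgeR fit of all 9 libraries. Rings mark the 3 genes with an unadjusted p under 0.05, Ucn and Chrna6 above 0 and Pcyt1a below it.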

How the data were processed

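UMI counts of midbrain from 4 DJ-1+/+ and 5 DJ-1-/- mice, 1 library per mouse, were analysed. The authors deposited whole-number counts per Ensembl gene for each mouse, without normalization. Per the submitters' processing notes fastp 0.20.0, STAR 2.7.3a, featureCounts 2.0.0, UMI-tools 1.0.0 and GRCm38 were used. The annotation release and the use of strand are not given in the sources used here. The largest count of any gene was between 1040 and 1359 per library, and whether the counting of identifiers limited abundant genes was not tested.

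Counts were joined by identifier, with 0 for a gene absent from a library, and 26570 of 26602 identifiers matched a symbol. The test covered genes whose 9 counts summed to at least 10, with edgeR 4.0.16 (TMM, glmQLFit, glmQLFTest, genotype as the only term) in R 4.3.3, with Benjamini-Hochberg adjustment over all genes tested. The standard error is the log2 fold change divided by the square root of F. Counts per 1000000 (cpm) are relative to the library total. Single genes were also compared as cpm with exact two-sided permutation tests over all splits of the mice. The smallest p of this test for 4 against 5 mice is 0.0159, and it was checked against that of scipy 1.17.1. Scripts were tested on simulated data.

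The rule for the 6 genes uses no measured value, but they and the marker lists were chosen with earlier results of these data known. The genes named are the 6 members, the genes of each list with the smallest p or the extreme log2 fold changes, list genes without overlap between genotypes, Park7, and the 5 genes most like the sum of Chat, Slc18a3 and Slc5a7 and most like Ache. Xist, Prph, Tbx20 and Cartpt, the genes most like Isl1, and those behind a count of 5 or fewer were named after their values were seen. Of the marker lists, 1 is not reported here. Pairs of libraries of one genotype differed by more than sampling noise (chi-square per degree of freedom 1.07 to 2.27 over 16 pairs), so that each was kept as 1 replicate. The alternatives were other normalizations, DESeq2 1.42.0, no or a stricter filter on low counts, counts thinned to 841974 per library, a covariate (Xist, or the summed Hox level), a replicate block, and libraries left out. Replicates are separate animals.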

Additional observations from a re-analysis of the deposited data

Results flagged for a closer look

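In DJ-1-/- replicate 3, Isl1 stood at 55.71 cpm while the other 4 DJ-1-/- mice lay between 15.01 and 26.41 cpm, a gap larger than Dixon's test allows. This was 1 of 50 groups of libraries examined, where chance at 1 in 20 gives 2.5.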

How the results depend on the processing

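Over 100 alternative fits of the 5 genes above the floor, 90 kept the sign of the log2 fold change, 10 turned it, and none reached an adjusted p under 0.05 in edgeR's or DESeq2's test. Chat stayed between 0.17 and 0.67 and Slc18a3 between 0.15 and 0.92. The unadjusted p of Chat was 0.00954 without a filter and 0.000608 with the replicate block, and that of Slc18a3 0.0274 and 0.00817 (edgeR). Slc5a7 was 0.41 with the replicate block (edgeR, unadjusted p = 0.00222) and −0.055 with Xist as a covariate. Ache was 0.0035 without a filter, 0.015 on thinned counts, 0.070 with the replicate block, 0.0030 without WT 4 and DJ-1-/- 5, and −0.10 to 0.091 with each library left out in turn. Isl1 ran from −0.81 to 0.11 with each library left out.

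Over all genes, the 1 call became 36 without a filter, 2 without WT 4 and DJ-1-/- 5, and 1 to 2 with each library left out. Genes with an unadjusted p under 0.05 numbered 235 with DESeq2, 802 without a filter, and 338 to 732 with each library left out, lowest without DJ-1-/- 2. The 3 pairs of genes past the adjusted threshold became 1 without WT 4 and DJ-1-/- 5 and 1 to 6 with each library left out, with 1 without WT 2 or without DJ-1-/- 5, 5 without WT 4 or without DJ-1-/- 2, and 6 without WT 3. Same-numbered mice deviated together with r of 0.29, 0.06, −0.10 and −0.18, and 1 of 4 correlated best with its own number, so that the numbers are not a pairing. With the replicate block, in which DJ-1-/- 5 has no partner and so does not bear on the difference, 8 genes were called over all genes.

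All the alternatives were run for 14 of the other genes named, and not for the rest. Among these 14, signs turned for values near 0 or genes at low counts. With each library left out they were Chrnb1 (−1.07 to 0.80, positive without WT 3), Lhx3 (−0.50 to 0.49, positive without WT 3 or DJ-1-/- 4), Lypd6 (−0.036 to 0.30, negative without WT 1 or 3) and Nos1 (−0.15 to 0.047, positive without WT 1, WT 3 or DJ-1-/- 5), and in other fits Lypd1 (−0.0005 with Xist as a covariate, −0.0015 without WT 1 and 4), Tmem35a (0.0019 without WT 1 and 4) and Nos1 (0.037 with the replicate block). The cause was not tested in any of these. At these depths Phox2a was at the floor.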

Other observations

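Isl1 varied apart from the cholinergic genes. The 5 genes most like it over the 9 mice, of 12632 ranked, were Trip4, Dok4, Rspo1, Gm10419 and Pibf1, with r between 0.97 and 0.98. Rspo1, which encodes a secreted R-spondin, had 4, 35, 10 and 24 counts in WT and 13, 14, 26, 16 and 14 counts in DJ-1-/- mice, highest in the same 3 libraries as Isl1. This ranking was added after the values were seen and is a description over 9 points.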
